A study of Mus musculus with 24 samples.

Results

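Most of the proteins of the mitochondrial respiratory chain and of ATP synthase are made from nuclear genes, and the mRNA of these genes was examined here in mouse spleen. The genes were chosen by symbol: protein-coding genes whose symbols start with Ndufa, Ndufb, Ndufc, Ndufs, Ndufv, Sdha, Sdhb, Sdhc, Sdhd, Uqcr, Cox4i, Cox5, Cox6, Cox7, Cox8 or Atp5, with pseudogenes left out. This gave 98 of the 55414 genes in the count tables. By role, as read from the symbol, 36 were taken as complex I subunits, 4 complex II, 8 complex III, 20 complex IV and 18 complex V (ATP synthase). A further 12 encode assembly factors that share a prefix with the subunits. Ndufa4 and Ndufa4l2 were placed with complex IV. The prefixes were read in the symbols that the reference gene table gives, so the ATP synthase inhibitor (Atpif1 there, Atp5if1 in newer usage) and Usmg5 (Atp5md) fall outside the rule.

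The study profiled RNA and the T and B cell receptors of spleen in the CT-26 tumour model, where CT-26 is a colon carcinoma line that grows in BALB/c mice. The 8 RNA-seq libraries were made from total RNA of spleen (splenocytes) of BALB/c mice, with an age of 8 weeks given for the injection of CT-26 cells on the right side. By title, 4 libraries are control and 4 are CT-26, but the treatment field says the reverse: it lists injected CT-26 cells for the libraries titled control and healthy control for those titled CT-26. The sets are therefore named by their titles only, and no difference is read as one between tumour-bearing and healthy mice. No label says that the 4 libraries of a set come from separate animals, so each p-value measures the spread between these libraries, which may be technical.

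The respiratory chain passes electrons from NADH (complex I) and succinate (complex II) through complex III to oxygen at complex IV, and ATP synthase uses the proton gradient that complexes I, III and IV build. Complex II is made wholly from nuclear genes, whereas the others also need subunits encoded in mitochondrial DNA, so that their assembly draws on both genomes. In spleen the need for respiration differs between resting lymphocytes, dividing precursors and maturing red cells, which lose their mitochondria.

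The libraries held 735298 to 1970950 counts. Mitochondrial genes took 66.1, 48.7, 46.2 and 58.3% of them in titled control 1 to 4 and 41.1, 32.0, 39.2 and 37.6% in titled CT-26 1 to 4. Levels are therefore given in CPM, here counts scaled to 1000000 non-mitochondrial counts, of which a library held 459109 to 822137. The labelled tissue carried spleen markers in every library, and the sets differed in them. Markers of B cells summed to 4021 to 5989.9 CPM in the titled control libraries and 599.9 to 1343 in the titled CT-26 libraries (9 of 10 lower), and those of T cells to 2948 to 4109.6 and 556 to 1393 (10 of 10 lower). NK cell markers summed to 238 to 579.5 and 17.9 to 38.1 CPM (3 of 3 tested lower, of 5), and red pulp macrophage markers to 2433 to 2659 and 1139.7 to 1627 (4 of 5 tested lower, of 6). Markers of erythroid precursors summed to 1461 to 1862 and 5307 to 8706 CPM (9 of 9 higher), of neutrophil precursors to 488 to 825 and 3268 to 7891 (8 of 8 tested higher, of 9), and of dividing cells to 1157 to 1687 and 6482 to 8653 (10 of 10 higher). Immediate early and stress genes, which can rise during tissue handling, summed to 91.1 to 158 and 132 to 281 CPM (1 of 3 tested higher, of 9). Of all 6636 genes tested, 17.8% were higher and 25.6% lower in the titled CT-26 set. No marker in the first 7 lists was at 0 in every library. The part of these marker differences in the results on respiratory genes was not tested, and in bulk RNA a change in the number of cells of a type cannot be told apart from a change of RNA per cell.

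The 98 genes together held 9731 ± 487 CPM in the titled control set and 11209 ± 1609.9 in the titled CT-26 set (SD, n = 4 each), which was 0.922 to 1.03% of non-mitochondrial counts in the titled control libraries and 0.993 to 1.35% in the others. By complex, the summed level of ATP synthase stood higher in every titled CT-26 library than in every titled control library, as did that of complex II through 1 gene, Sdhd, without which the sets overlapped and the means lay the other way. The sums of complexes I and III did not separate the sets. Complex V summed to 1879.8, 1776, 2001 and 2199 CPM in titled control 1 to 4 and 2386, 2786, 2336 and 2276 in titled CT-26 1 to 4, a log2 ratio of the means of 0.32. Complex II summed to 425, 423, 391 and 384 CPM in titled control 1 to 4 and 491, 568, 438 and 451 in titled CT-26 1 to 4, a log2 ratio of 0.26. In both complexes the lowest titled CT-26 library lay above the highest titled control library. Without Sdhd, complex II summed to 188, 228, 235 and 257 CPM in titled control 1 to 4 and 202, 242, 144 and 216 in titled CT-26 1 to 4, a log2 ratio of -0.18 with overlapping sets. For complex V the log2 ratio lay between 0.27 and 0.36 whichever of its 18 genes was left out, and the sets stayed apart in 15 of those 18 sums, the exceptions being those without Atp5b, Atp5g3 or Atp5h. Complex IV summed to 3843, 3509, 3317 and 3452 CPM in titled control 1 to 4 and 4156, 5685, 4257 and 3698 in titled CT-26 1 to 4. Its log2 ratio was 0.33 with overlapping sets, and 0.22 when 1 gene, Cox6b2, was left out. Complex I summed to 2620.4, 2183, 2558 and 2502 CPM in titled control 1 to 4 and 2450.2, 2995, 2134 and 2278 in titled CT-26 1 to 4, with titled CT-26 2 above and titled CT-26 3 below all the titled control libraries. Its means were 2466 ± 195 CPM in the titled control set and 2464 ± 377 in the titled CT-26 set (SD, n = 4 each), a log2 ratio of -0.00. Complex III summed to 1039 ± 105 CPM in the titled control set and 1070.1 ± 115 in the titled CT-26 set (SD, n = 4 each), a log2 ratio of 0.04, and the assembly factors to 326 ± 46.4 CPM in the titled control set and 292 ± 90.5 in the titled CT-26 set (SD, n = 4 each). The assembly factors' log2 ratio was -0.16, and -0.99 without Sdhaf1. These sums without 1 gene were chosen after the data were seen. Sums are descriptions without a test. Within sequencing lane 1 (titled control 3 against titled CT-26 2 and 4) and lane 2 (titled control 1 and 4 against titled CT-26 1), read from the file names, the log2 ratios were 0.34 and 0.23 for complex V, 0.38 and 0.28 for complex II and 0.50 and 0.19 for complex IV. For the assembly factors they had opposite signs (-0.23 and 0.27).

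**Figure D1:**
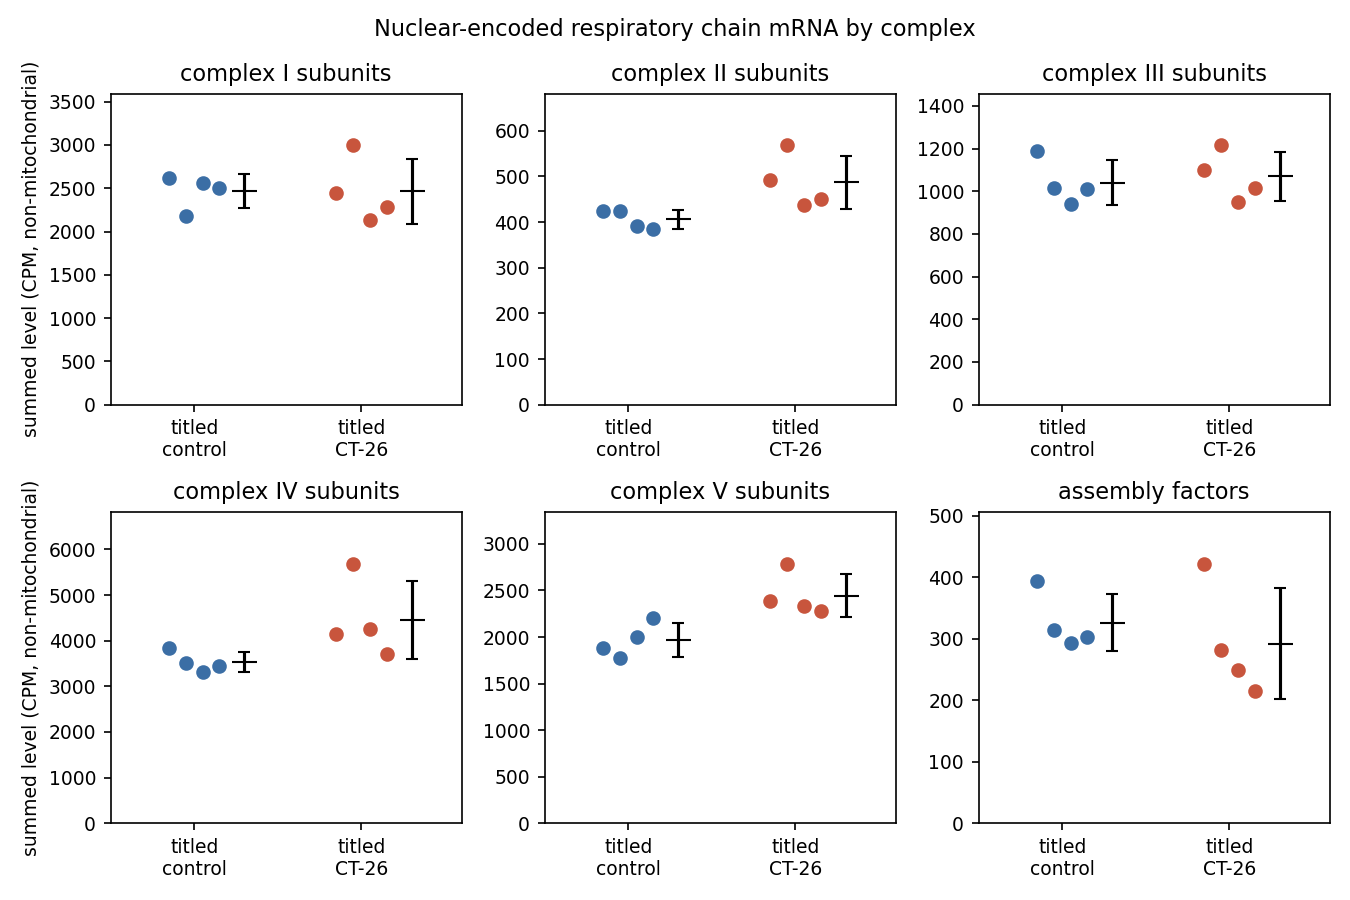
Summed level of each complex's nuclear-encoded subunits and of the assembly factors (CPM, over non-mitochondrial counts, axes from 0), 1 point per library, with the mean and SD of each set of 4 beside the points. The sets do not overlap for complex V or, with Sdhd in the sum, for complex II, and titled CT-26 2 is the highest library for complexes I to V.

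Of the 98 genes, 93 had a count in some library and 75 passed the filter on low counts, which asks for about 10 counts in at least 4 libraries and so keeps a gene that is high in 1 set only. Against 43.4% of all 6636 genes tested, 19 of the 75 (25.3%) passed an adjusted p of 0.05 in edgeR's quasi-likelihood test. By direction, 10 were higher in the titled CT-26 set (background 17.8%), 9 were lower (background 25.6%) and 56 did not pass. The median log2 fold change, titled CT-26 minus titled control throughout, was -0.07 over the 75 genes and -0.15 over all genes tested. Changes of under 0.5 made up 60.0% of the 75 and 40.9% of all genes, and changes of 1 or more were 9 of the 75 and 32.0% of all genes. The sets did not overlap in level for 16 of the 75, 8 in each direction, and for 38.5% of all genes tested. Of the 23 genes that were not tested, 5 were at 0 in all 8 libraries: Cox4i2, Cox7b2, Cox8b, Cox8c and a second gene with the symbol Atp5o. For the Cox genes a count of 0 allows up to 3 counts, or 3.65 to 6.53 CPM by library, and covers counting error only. The second Atp5o shares 100% of its exon length with Atp5o and Donson. Its reads could be lost in counting, so its 0 sets no such limit.

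**Figure D2:**
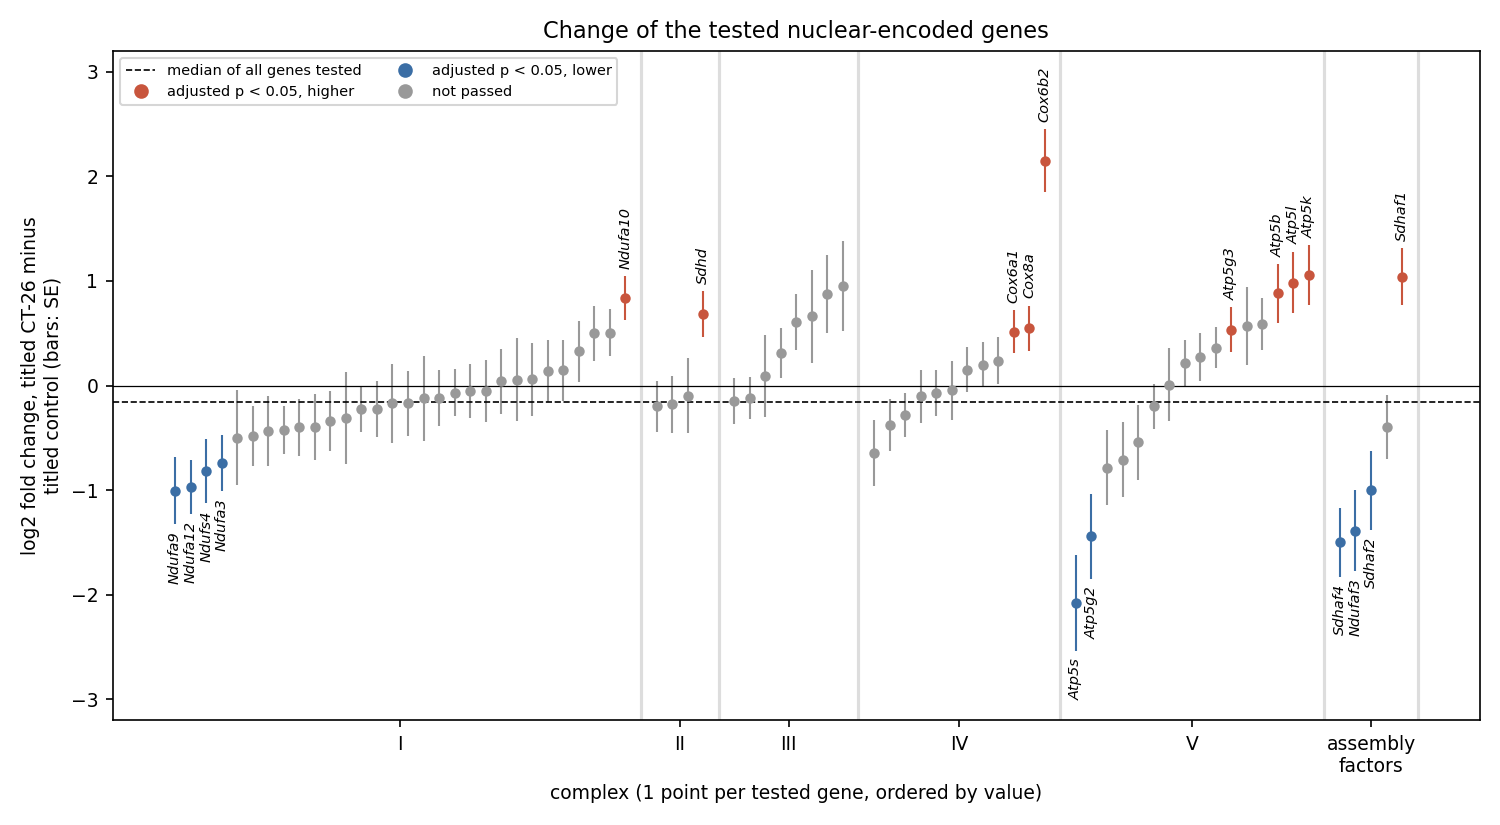
Log2 fold change (titled CT-26 minus titled control, bars for the SE) of the 75 tested genes, 1 point per gene ordered within each complex, coloured by whether edgeR's adjusted p was under 0.05. In all, 10 points are called higher and 9 lower, and Cox6b2 is the highest point at 2.15.

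The balance of calls depended on the scaling. With TMM over all genes on total counts, 16 genes were higher and 6 lower, with TMM over non-mitochondrial genes 17 and 6, and with DESeq2's size factors 15 and 6. With total counts, mitochondrial ones included, it was 26 and 2. The higher share of the calls was 52.6% by non-mitochondrial totals, 72.7, 73.9 and 71.4% by those 3 scalings and 92.9% by total counts. Over all genes tested this share moved the same way, from 41.1% to 49.2, 50.4 and 50.5% and to 71.2%. These settings moved the median of all genes tested by 0.13, 0.15, 0.14 and 0.48, while the median of the 75 genes stayed 0.08 or 0.09 above it in each. A scaling moves all genes by nearly the same amount, so it could hardly change this gap. On leaving out each library the gap ran from -0.01 (without titled CT-26 2) to 0.17 (without titled CT-26 1). In a fit with lane as a factor the counts were 5 and 7, with 30.7% of all genes called. Lane 4 held only titled control 2 and lane 3 only titled CT-26 3. In that fit these libraries carry no information on the set difference, so it has less power to call a gene. Over 16 other settings (scalings, test, filter, lane, replicate block and leaving out each library), Ndufa10, Sdhd, Cox6b2 and Sdhaf1 kept a higher call and Atp5s and Sdhaf4 a lower call in every one.

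**Figure D3:**
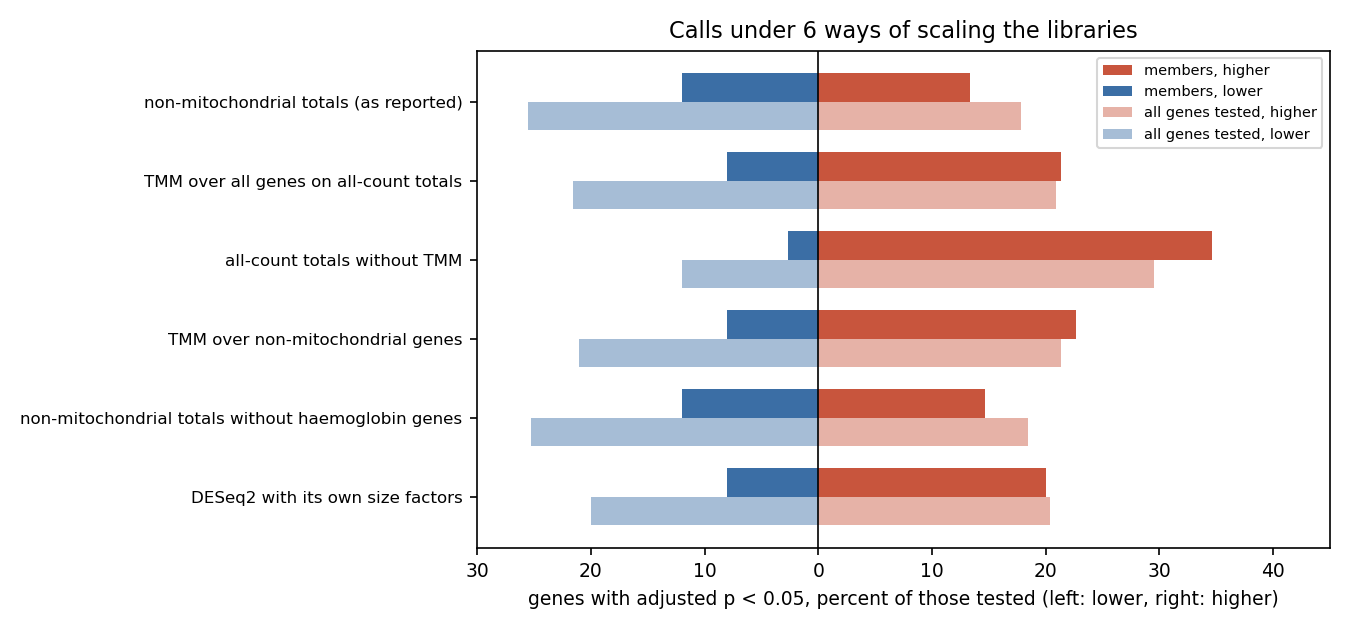
Percent of the 75 tested respiratory genes, and of all genes tested (paler bars), called higher (right) or lower (left) under 6 ways of scaling the libraries. Calls are by edgeR, or DESeq2 where named, at an adjusted p under 0.05. As numbers of the 75 genes, the higher calls range from 10 with non-mitochondrial totals to 26 with total counts, and the lower calls from 9 to 2.

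Complex I oxidises NADH and is the largest complex of the chain. Of its 36 nuclear genes 30 were tested, with 1 higher, 4 lower and a median log2 fold change of -0.17. These calls were 3.33 and 13.3% of the tested genes of the complex, beside 17.8 and 25.6% of all genes tested. Ndufa10, an accessory subunit on the matrix side (ENSMUSG00000026260, chr1:92366732-92401582 in the GRCm39 annotation), stood at 172, 163, 211 and 264 CPM in titled control 1 to 4 and 371, 384, 297 and 399 in titled CT-26 1 to 4. Every titled CT-26 library was above every titled control library, and the log2 fold change was 0.84 ± 0.21 (SE), adjusted p = 0.00180 (edgeR). Ndufa12, an accessory subunit that takes the place of the assembly factor Ndufaf2 late in assembly, stood at 95.1, 82.8, 104.4 and 112 CPM in titled control 1 to 4 and 57.9, 53.6, 52.9 and 34.9 in titled CT-26 1 to 4. It was lower in every titled CT-26 library, with a log2 fold change of -0.97 ± 0.26 (SE), adjusted p = 0.00285 (edgeR), a call lost with total counts. Ndufs4, an accessory subunit of the NADH-oxidising arm whose loss causes Leigh syndrome, stood at 42.5, 54.3, 38.9 and 52.3 CPM in titled control 1 to 4 and 31.4, 29.4, 20.6 and 26.1 in titled CT-26 1 to 4. The small membrane-arm subunit Ndufa3 stood at 105, 80.1, 59.4 and 81.5 CPM in titled control 1 to 4 and 56.3, 54.9, 39.6 and 43.6 in titled CT-26 1 to 4. Neither gene's sets overlapped, and both were lower by edgeR (-0.82 ± 0.31 (SE), adjusted p = 0.0320 and -0.74 ± 0.27 (SE), adjusted p = 0.0257). These 2 calls were lost with TMM of either kind, with total counts, with DESeq2, without the filter and with lane as a factor. Without the filter the log2 fold changes were -0.82 and -0.74 as before, with lane -0.54 and -0.50, with DESeq2 and TMM between -0.59 and -0.69, and with total counts -0.34 and -0.23. The same calls were lost without titled CT-26 3 or 4, and without titled control 2 or 4 for Ndufs4 and titled control 1 for Ndufa3. Ndufa9, which sits where the membrane and matrix arms meet, stood at 62.7, 43.4, 94.2 and 76.6 CPM in titled control 1 to 4 and 38.1, 52.3, 23.5 and 19.6 in titled CT-26 1 to 4, so that titled CT-26 2 lay among the titled control libraries. Its log2 fold change was -1.003 ± 0.32 (SE), adjusted p = 0.0104 (edgeR), lost with total counts and without titled control 3. Of the core subunits of the matrix arm, Ndufs1 (-0.07), Ndufs3 (0.06) and Ndufs7 (0.05) had log2 fold changes near 0 that did not pass, and Ndufs8 and Ndufv1 had too few counts for a test. In all, 25 genes of complex I did not pass, 17 below and 8 above 0, between -0.50 and 0.51. Ndufa9 was named after its values were seen, as were Cox6b1, Uqcrfs1, Uqcr11, Uqcrq, Ndufs1, Ndufs3, Ndufs7, Cox7b, Atp5mpl, Atp5d, Atp5b, Atp5a1, Atp5g1, Atp5g3, Sdha, Sdhb, Sdhc and Ndufaf4.

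Per kilobase of annotated exon, Ndufv2, an iron-sulphur subunit of the NADH-oxidising module, had the highest level in complex I, 183 CPM per kilobase over the 8 libraries. Ndufab1, the acyl carrier protein, had the lowest of the tested genes at 3.02. Ndufv2 stood at 441, 251, 379 and 229.9 CPM in titled control 1 to 4 and 476, 539, 404 and 418 in titled CT-26 1 to 4. The sets overlapped, since titled control 1 exceeded titled CT-26 3 and 4, and the log2 fold change of 0.51 ± 0.22 (SE), adjusted p = 0.0625 (edgeR), did not pass. Proteins of 1 complex are present in fixed proportions, whereas over the tested genes the mRNA levels per kilobase spanned 60.4-fold in complex I, 15.1-fold in complex II, 71.7-fold in complex III, 56.4-fold in complex IV and 54.5-fold in complex V. Some untested genes lay lower still, such as Ndufb2 (0.857), Cox5a (6.66) and Atp5g1 (2.90 CPM per kilobase), so the spans of complexes I, IV and V are too small. The exon length in the tables joins all annotated transcripts, so a long annotated exon that is not used lowers the value per kilobase.

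Complex II is succinate dehydrogenase, which also works in the citric acid cycle. Its 4 subunit genes were all tested and 1 was higher, beside 17.8% of all genes tested. Sdhd, a membrane anchor (ENSMUSG00000000171, chr9:50507657-50515112), stood at 237, 195, 156 and 128 CPM in titled control 1 to 4 and 289.5, 325, 294 and 235 in titled CT-26 1 to 4. Titled control 1 lay just above titled CT-26 4, so the sets overlapped by that pair, and the log2 fold change was 0.69 ± 0.22 (SE), adjusted p = 0.0119 (edgeR). The flavoprotein gene Sdha (-0.20), the iron-sulphur subunit gene Sdhb (-0.10) and the other anchor gene Sdhc (-0.18) had log2 fold changes below 0 that did not pass. Sdhd was also the most abundant of the 4 per kilobase (189 CPM per kilobase, against 12.5 for Sdhb).

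Complex III passes electrons from ubiquinol to cytochrome c. Of its 8 genes 0 passed edgeR's adjusted p of 0.05, though 3 had an unadjusted p under 0.05. DESeq2 called 2 of the 8 higher, edgeR with TMM of either kind 3, with total counts 5 and with lane as a factor 1. In those settings 20.4% (DESeq2), 20.9 and 21.4% (TMM), 29.6% (total counts) and 13.4% (lane) of all genes tested were higher. The median log2 fold change was 0.46, with 6 genes above 0. The 3 with the small unadjusted p were Uqcrfs1, the Rieske iron-sulphur protein (0.95 ± 0.43 (SE), adjusted p = 0.0722), Uqcr11 (0.88 ± 0.37 (SE), adjusted p = 0.0548) and Uqcrq (0.60 ± 0.27 (SE), adjusted p = 0.0657), all by edgeR. Uqcrh, the hinge protein that contacts cytochrome c1 and the highest per kilobase (496 CPM per kilobase), stood at 745, 621, 539 and 653 CPM in titled control 1 to 4 and 582, 662, 569.7 and 540.2 in titled CT-26 1 to 4. Those values overlapped widely, with a log2 fold change of -0.12 ± 0.20 (SE), adjusted p = 0.659 (edgeR). Uqcrb, a ubiquinone-binding subunit, had the value farthest below the median of the complex, -0.15 ± 0.22 (SE), adjusted p = 0.619 (edgeR), and neither gene's sign held under every scaling.

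Complex IV, cytochrome c oxidase, reduces oxygen, and several of its subunits have a second gene used in muscle, testis or lung. Of 12 tested genes 3 were higher (25.0%, beside 17.8% of all genes tested) and 9 did not pass. The gene farthest from the others was Cox6b2 (ENSMUSG00000051811, chr7:4754791-4756093), known as the testis form of the intermembrane-space subunit VIb, which stood at 58.7, 86.8, 102 and 156 CPM in titled control 1 to 4 and 361, 763, 349 and 338 in titled CT-26 1 to 4. Every titled CT-26 library was above every titled control library, and titled CT-26 2 was the highest. The fold was 4.44, a log2 fold change of 2.15 ± 0.30 (SE), adjusted p = 5.57e-06 (edgeR). The ubiquitous gene Cox6b1 stood at 679.9, 722, 637 and 589 CPM in titled control 1 to 4 and 531, 647, 608 and 366 in titled CT-26 1 to 4, with overlapping sets and a change of -0.28 ± 0.21 (SE), adjusted p = 0.283 (edgeR) that did not pass. Per kilobase, Cox6b1 was at 928 and Cox6b2 at 91.1 CPM per kilobase in the titled control set, and at 759.9 and 409 in the titled CT-26 set. Within each library, which needs no scaling, Cox6b2 made up 7.95, 10.7, 13.9 and 20.9% in titled control 1 to 4 and 40.4, 54.1, 36.5 and 48.0% in titled CT-26 1 to 4 of the counts of the pair. In lane 1 this share was 13.9% in the titled control library and 51.1% in the titled CT-26 ones, and in lane 2 it was 14.4 and 40.4%. The exons of Cox6b2 overlap no other annotated gene. Its neighbours within 6000 bases are Fam71e2, with no counts, and Kmt5c, 4278 bases away on the other strand, which was itself higher (log2 fold change 1.34).

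Cox6a1, the widely expressed form of subunit VIa, stood at 765, 643, 631 and 710.3 CPM in titled control 1 to 4 and 912, 1259.7, 950.0 and 799 in titled CT-26 1 to 4. Cox8a, a small membrane subunit and the highest of complex IV per kilobase (1559.7 CPM per kilobase), stood at 957, 921, 649 and 611 CPM in titled control 1 to 4 and 1044, 1455, 1122 and 965 in titled CT-26 1 to 4. Neither gene's sets overlapped, though titled control 1 and titled CT-26 4 nearly met for Cox8a, and both were higher by edgeR (0.51 ± 0.21 (SE), adjusted p = 0.0424, and 0.55 ± 0.22 (SE), adjusted p = 0.0386). Both calls were lost with lane as a factor, where the log2 fold changes were still 0.51 and 0.66, and without titled control 3, titled CT-26 2 or titled CT-26 3, where they lay between 0.37 and 0.56. That of Cox6a1 was also lost without the filter or without titled control 2, and that of Cox8a without titled control 4. Cox6a2, the muscle form of VIa, had too few counts for a test: 3, 12, 8 and 2 counts in titled control 1 to 4 and 1, 1, 0 and 0 in titled CT-26 1 to 4. It made up 0.341 to 2.53% of the VIa counts in the titled control libraries and at most 0.181% in the others, and 10.3% of its exon length overlaps Itgad. Cox7a1, the muscle form of VIIa, reached at most 10.1 CPM and Ndufa4l2, a paralogue of Ndufa4 known from hypoxic cells, at most 2.43. Ndufa4 itself stood at 233, 258, 127 and 202 CPM in titled control 1 to 4 and 289.5, 265, 216 and 196 in titled CT-26 1 to 4 and Cox7a2l, which links complexes III and IV into supercomplexes, at 134, 90.9, 73.7 and 118 CPM in titled control 1 to 4 and 121, 93.2, 70.5 and 105 in titled CT-26 1 to 4. Both genes' sets overlapped and neither passed edgeR's test (0.24 ± 0.23 (SE), adjusted p = 0.417, and -0.10 ± 0.25 (SE), adjusted p = 0.763). The sign of the Cox7a2l change turned with the scaling. The 9 genes of complex IV that did not pass lay between -0.65 (Cox7b, a small membrane subunit) and 0.24.

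Complex V, ATP synthase, turns a ring of c subunits in the membrane to drive catalysis in its soluble head. Of 16 tested genes 4 were higher and 2 lower (25.0 and 12.5%), beside 17.8 and 25.6% of all genes tested. With lane as a factor 0 of the 16 were higher and 3 lower, beside 13.4 and 17.3% of all genes tested. Atp5k and Atp5l encode the small subunits e and g of the membrane part, where ATP synthase dimers meet. Atp5k stood at 32.4, 21.7, 36.9 and 35.3 CPM in titled control 1 to 4 and 66.2, 71.5, 67.5 and 54.5 in titled CT-26 1 to 4. Atp5l stood at 40.5, 24.4, 22.5 and 37.7 CPM in titled control 1 to 4 and 52.9, 63.8, 76.4 and 54.5 in titled CT-26 1 to 4. For both genes all titled CT-26 libraries were higher, by 1.06 ± 0.29 (SE), adjusted p = 0.00311, and 0.98 ± 0.29 (SE), adjusted p = 0.00706 (edgeR), and both calls were lost only with lane as a factor among the 16 settings, at 0.88 and 0.85. Atp5s, the coupling factor B gene, was placed with complex V by its symbol alone, and passed the filter on low counts through the titled control set. It changed the most of these genes and in the other direction. It stood at 36.4, 48.8, 28.7 and 18.2 CPM in titled control 1 to 4 and 3.31, 5.11, 8.81 and 15.2 in titled CT-26 1 to 4, with no overlap and a log2 fold change of -2.08 ± 0.46 (SE), adjusted p = 0.000404 (edgeR). Atp5b, the catalytic beta subunit, stood at 68.8, 77.3, 166 and 197 CPM in titled control 1 to 4 and 203, 274, 179 and 288 in titled CT-26 1 to 4. Titled control 4 lay above titled CT-26 3, so the sets overlapped, and the change of 0.88 ± 0.28 (SE), adjusted p = 0.0139 (edgeR) was lost with lane as a factor (0.67) and without titled CT-26 4 (0.78). The alpha subunit gene Atp5a1 did not pass (0.59 ± 0.25 (SE), adjusted p = 0.0579, edgeR). Atp5h, subunit d of the peripheral stalk and the highest per kilobase (394 CPM per kilobase), stood at 528, 562, 459 and 471 CPM in titled control 1 to 4 and 572, 713, 733 and 577 in titled CT-26 1 to 4. Its sets did not overlap, but the change of 0.36 ± 0.20 (SE), adjusted p = 0.143 (edgeR) did not pass. In all, 10 genes of complex V did not pass, 6 above and 4 below 0, from -0.79 for Atp5mpl, a small membrane subunit, and -0.71 for Atp5d, the delta subunit of the rotor, to 0.59 for Atp5a1.

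The c subunit is made from 3 genes that encode the same mature protein with different import sequences. Atp5g3 stood at 309.6, 303, 295 and 367 CPM in titled control 1 to 4 and 577, 499, 477 and 289.7 in titled CT-26 1 to 4. Atp5g2 stood at 40.5, 28.5, 28.7 and 30.4 CPM in titled control 1 to 4 and 6.62, 21.7, 7.34 and 8.71 in titled CT-26 1 to 4. Atp5g1, not tested, stood at 20.2, 8.14, 16.4 and 13.4 CPM in titled control 1 to 4 and 8.27, 14.0, 20.6 and 13.1 in titled CT-26 1 to 4. Atp5g2 was lower in every titled CT-26 library (-1.44 ± 0.41 (SE), adjusted p = 0.00451, edgeR), and without titled CT-26 2 its log2 fold change was -2.06. Its call was lost with total counts, and it passed the filter on low counts through the titled control set. Atp5g3 was higher in 3 of the 4 titled CT-26 libraries than in all titled control ones (0.53 ± 0.22 (SE), adjusted p = 0.0439, edgeR), and titled CT-26 4 was the lowest of all 8. The Atp5g3 call was lost without the filter (0.53), with lane as a factor (0.60), and on leaving out any library other than titled control 4 and titled CT-26 4 (0.41 to 0.52), with the size of the log2 fold change given in parentheses. Within each library Atp5g2 made up 10.9, 8.40, 8.43 and 7.40% in titled control 1 to 4 and 1.12, 4.06, 1.45 and 2.80% in titled CT-26 1 to 4 of the counts of the 3 genes. Atp5g3 made up 83.6 to 89.3% in the titled control libraries and 93.0 to 97.5% in the others. These genes are similar in sequence, and reads that fit more than 1 of them could be split or lost in counting, so their levels are uncertain.

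Atpif1, the inhibitor that stops ATP synthase from running backwards, lies outside the prefixes and was looked up by name. It stood at 174, 133, 188 and 173 CPM in titled control 1 to 4 and 402, 855, 382 and 449 in titled CT-26 1 to 4. All titled CT-26 libraries were above all titled control libraries, with titled CT-26 2 the highest, a fold of 3.14 and a log2 fold change of 1.65 ± 0.24 (SE), adjusted p = 2.18e-06 (edgeR). Usmg5, a small membrane subunit, had 0.18 ± 0.28 (SE), adjusted p = 0.646 (edgeR). Atpif1 is known to be needed for haem synthesis in developing red cells, and erythroid precursor markers, above, were higher in the same libraries; their part in its level was not tested.

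**Figure D4:**
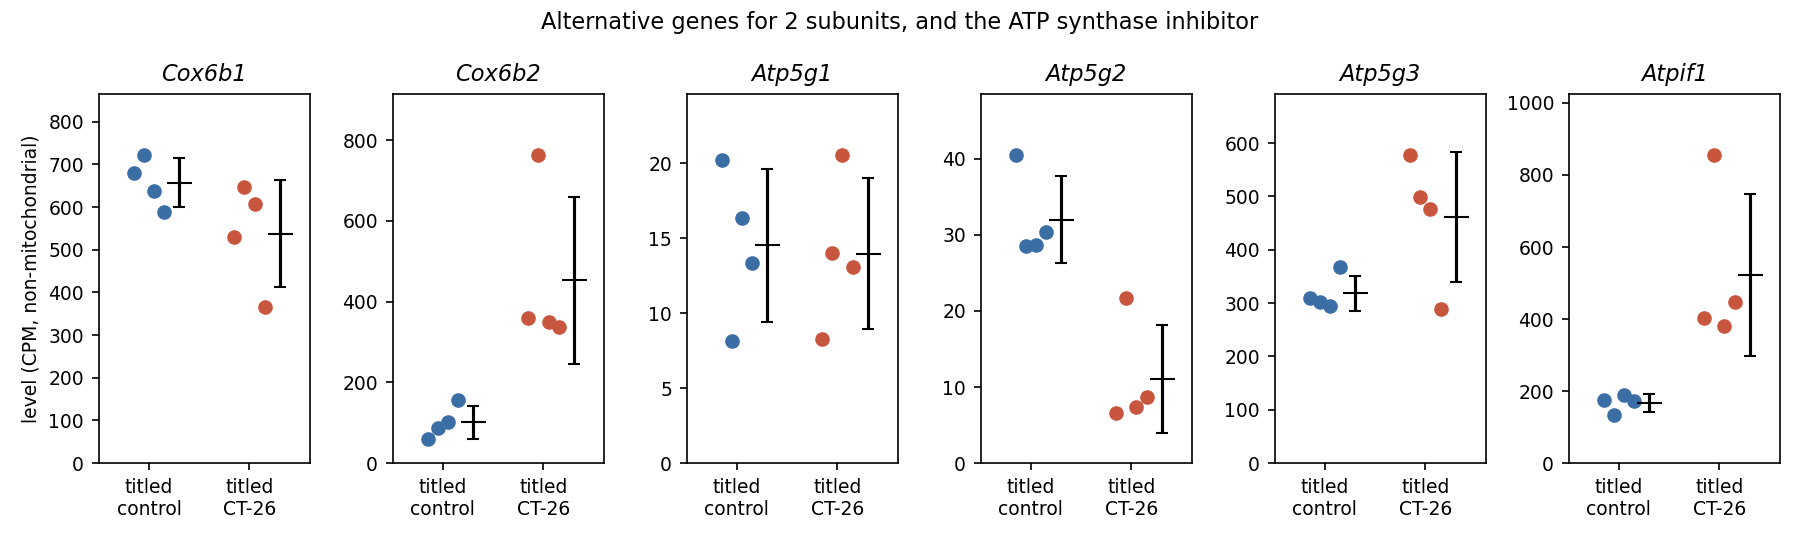
Level per library (CPM, over non-mitochondrial counts, axes from 0) of the alternative genes for complex IV subunit VIb (Cox6b1, Cox6b2) and for the c subunit of ATP synthase (Atp5g1, Atp5g2, Atp5g3), and of the inhibitor Atpif1, with the mean and SD of each set of 4. Cox6b2 and Atpif1 are higher and Atp5g2 lower in all 4 titled CT-26 libraries, while Cox6b1 and Atp5g1 overlap.

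The promoters of these alternative genes are printed because genes for the same subunit differed in level and in change. Each is the 250 bases before the transcription start in the RefSeq table (GRCm38.p6), with motif matches on either strand in capitals.
Cox6b1 (chr7:30626115-30626364, reverse strand): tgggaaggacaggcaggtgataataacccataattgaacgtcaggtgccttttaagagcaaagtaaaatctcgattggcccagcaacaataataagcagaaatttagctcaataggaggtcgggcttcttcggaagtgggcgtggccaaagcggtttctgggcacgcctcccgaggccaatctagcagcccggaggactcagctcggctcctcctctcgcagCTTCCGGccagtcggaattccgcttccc
Cox6b2 (chr7:4753095-4753344, reverse strand): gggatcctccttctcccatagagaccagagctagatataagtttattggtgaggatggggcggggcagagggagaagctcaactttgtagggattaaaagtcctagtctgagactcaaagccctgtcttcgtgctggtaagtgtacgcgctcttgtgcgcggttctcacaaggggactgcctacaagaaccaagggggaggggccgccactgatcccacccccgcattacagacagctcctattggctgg
Atp5g1 (chr11:96075632-96075881, reverse strand): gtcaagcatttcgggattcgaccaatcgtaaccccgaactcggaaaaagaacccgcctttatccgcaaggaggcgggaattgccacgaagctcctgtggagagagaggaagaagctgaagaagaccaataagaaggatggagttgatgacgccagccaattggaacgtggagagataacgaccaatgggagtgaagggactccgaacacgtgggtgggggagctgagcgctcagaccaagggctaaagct
Atp5g2 (chr15:102671048-102671297, reverse strand): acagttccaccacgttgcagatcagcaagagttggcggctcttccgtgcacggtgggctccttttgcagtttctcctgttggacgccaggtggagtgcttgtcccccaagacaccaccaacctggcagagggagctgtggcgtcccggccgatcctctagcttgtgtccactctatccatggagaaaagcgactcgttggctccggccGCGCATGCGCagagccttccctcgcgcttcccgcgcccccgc
Atp5g3 (chr2:73911327-73911576, reverse strand): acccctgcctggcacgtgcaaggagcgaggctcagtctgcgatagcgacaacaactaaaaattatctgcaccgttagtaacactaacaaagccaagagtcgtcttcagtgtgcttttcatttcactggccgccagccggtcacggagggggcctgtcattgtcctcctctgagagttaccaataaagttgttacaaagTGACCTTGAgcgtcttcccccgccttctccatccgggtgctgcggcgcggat
The capitals mark the ETS core CCGGAAG in Cox6b1, starting 28 bases before the start, the NRF1 palindrome in Atp5g2 at 42 bases and the ERR element TCAAGGTCA in Atp5g3 at 52 bases. The windows of Cox6b2 and Atp5g1 hold none of the motifs searched, which says only that these letters are not there. NRF1, the ETS factor NRF2 (GABP), the oestrogen-related receptors and YY1 are known regulators of nuclear genes for respiration. In windows of 250 bases before to 50 after the start, matched by symbol for 78 of the 98 genes (83 windows), NRF1's motif was found in 8.43% and in 0.971% of all 32851 windows. The ETS core was found in 25.3% and 8.86%, the YY1 motif AAGATGGCG in 9.64% and 1.40%, and the ERR element in 2.41% and 0.423%. The 32851 windows include those of many genes with too few counts here for a test, whereas most of the 98 genes were tested. The 2 shares of each pair thus do not compare like genes. No pair of these motifs contains the other. Of the tested genes with the ETS core 6 of 17 were higher and 1 lower, beside 14.5% higher and 22.2% lower among all 1162 tested genes with that core. With the NRF1 motif 2 of 6 were higher and 1 lower, beside 14.3 and 18.6% of 140. With the YY1 motif 2 of 6 were lower, beside 21.5% of 209, and with the ERR element Atp5g3 and Sdhd were both higher, beside 26.7% of 15. These counts are small and no link between a motif and a direction was tested.

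Of the 12 assembly factor genes 5 were tested, with 1 higher and 3 lower, and their median log2 fold change was -1.003. Over all genes tested 17.8% were higher and 25.6% lower, and 5 genes are few for a share. The 3 lower genes passed the filter on low counts through the titled control set, where they were higher. The median and the share of lower calls therefore depend on which genes the filter kept. Sdhaf4, which guards the flavinated Sdha before it joins Sdhb, stood at 52.6, 50.2, 61.4 and 46.2 CPM in titled control 1 to 4 and 18.2, 16.6, 26.4 and 10.9 in titled CT-26 1 to 4. Ndufaf3, which acts early in complex I assembly, stood at 38.4, 36.6, 45.1 and 19.5 CPM in titled control 1 to 4 and 9.93, 12.8, 17.6 and 10.9 in titled CT-26 1 to 4. Sdhaf2, which helps to attach the flavin to Sdha, stood at 34.4, 21.7, 24.6 and 29.2 CPM in titled control 1 to 4 and 13.2, 11.5, 14.7 and 15.2 in titled CT-26 1 to 4. All 3 were lower in every titled CT-26 library than in every titled control library (-1.50 ± 0.33 (SE), adjusted p = 0.000444; -1.39 ± 0.39 (SE), adjusted p = 0.00408; -1.003 ± 0.38 (SE), adjusted p = 0.0315, by edgeR). The Sdhaf2 call was lost with no filter and with the lane factor, where its log2 fold change was still -1.003 and -1.07, and with DESeq2 and TMM of either kind (-0.85 to -0.87) and total counts (-0.50). It was lost as well on leaving out titled CT-26 1, 2 or 3, and likewise titled control 1 or 4 (-0.89 to -1.05). The Ndufaf3 call was lost with total counts. Sdhaf1, which protects the iron-sulphur clusters of Sdhb, stood at 103, 92.3, 65.5 and 69.3 CPM in titled control 1 to 4 and 288, 137, 141 and 113 in titled CT-26 1 to 4. It was higher in every titled CT-26 library (1.04 ± 0.27 (SE), adjusted p = 0.00231, edgeR), most in titled CT-26 1, and without that library the log2 fold change was 0.66. Since 69.6% of its exon length overlaps E130208F15Rik and counting ignored strand, its level is uncertain. Ndufaf4 did not pass (-0.40 ± 0.30 (SE), adjusted p = 0.304, edgeR). The 7 assembly factor genes with too few counts for a test all had lower means in the titled CT-26 set, at most 16.1 CPM in either set.

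The 13 mitochondrially encoded subunit mRNAs were measured on the same scale. By edgeR 12 of 13 were lower in the titled CT-26 set, beside 25.6% of all genes tested, and mt-Nd1 did not pass (-0.54 ± 0.29 (SE), adjusted p = 0.143). The ATP synthase gene mt-Atp6 stood at 1056, 765, 1022 and 2179.7 CPM in titled control 1 to 4 and 352, 364, 280.5 and 473 in titled CT-26 1 to 4, with no overlap and a log2 fold change of -1.78 ± 0.27 (SE), adjusted p = 7.96e-06 (edgeR). The oxidase gene mt-Co2 changed by -1.61 ± 0.31 (SE), adjusted p = 0.000273, and the complex I gene mt-Nd4l by -2.59 ± 0.45 (SE), adjusted p = 0.000524 (edgeR). Some of these genes share bases with a neighbouring gene, among them mt-Atp6 with mt-Atp8 and mt-Nd4l with mt-Nd4, so their levels are uncertain. Summed, these mRNAs were 1275728 ± 494058 CPM in the titled control set and 599503 ± 96167 in the titled CT-26 set (SD, n = 4 each), a log2 ratio of -1.09, with -0.68 in lane 1 and -1.26 in lane 2. For ATP synthase, whose nuclear subunits summed higher, the mitochondrial ones had a log2 ratio of -1.77. They were a very small part of the mitochondrial sum, at 1302 ± 645 CPM in the titled control set and 382 ± 83.0 in the titled CT-26 set (SD, n = 4 each). For complex I the nuclear ratio was -0.00 and the mitochondrial one -1.07, for complex III 0.04 and -1.22, and for complex IV 0.33 and -0.99, the last with overlapping sets. Within each library, and so free of scaling, the mitochondrially encoded counts of all complexes together were set over the nuclear counts of complexes I to V together. This pooled ratio was 194, 106, 92.3 and 145 in titled control 1 to 4 and 65.4, 35.3, 63.4 and 61.5 in titled CT-26 1 to 4. The lowest titled control library lay above the highest titled CT-26 library, and the order held in lane 1 (92.3 and 48.4) and lane 2 (169 and 65.4). By complex the ratio differed widely. It was 273 to 613 in the titled control and 126 to 253 in the titled CT-26 libraries for complex I, and 121 to 222 and 53.6 to 84.2 for complex III. For complex IV it was 6.21 to 28.1 and 4.03 to 10.7, with overlapping sets, and for complex V only 0.440 to 1.02 and 0.124 to 0.216. In the titled control set mt-Nd2 had a mean of 407775 CPM and mt-Nd6, on the opposite strand, 245889. Those of mt-Atp6 and mt-Co2 were 1256 and 1881 CPM. Counting ignored strand, and the loss of reads that fit more than 1 place was not tested, so the ratios by complex are uncertain. How much of the mitochondrial count is transcript made in intact cells was not tested.

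**Figure D5:**
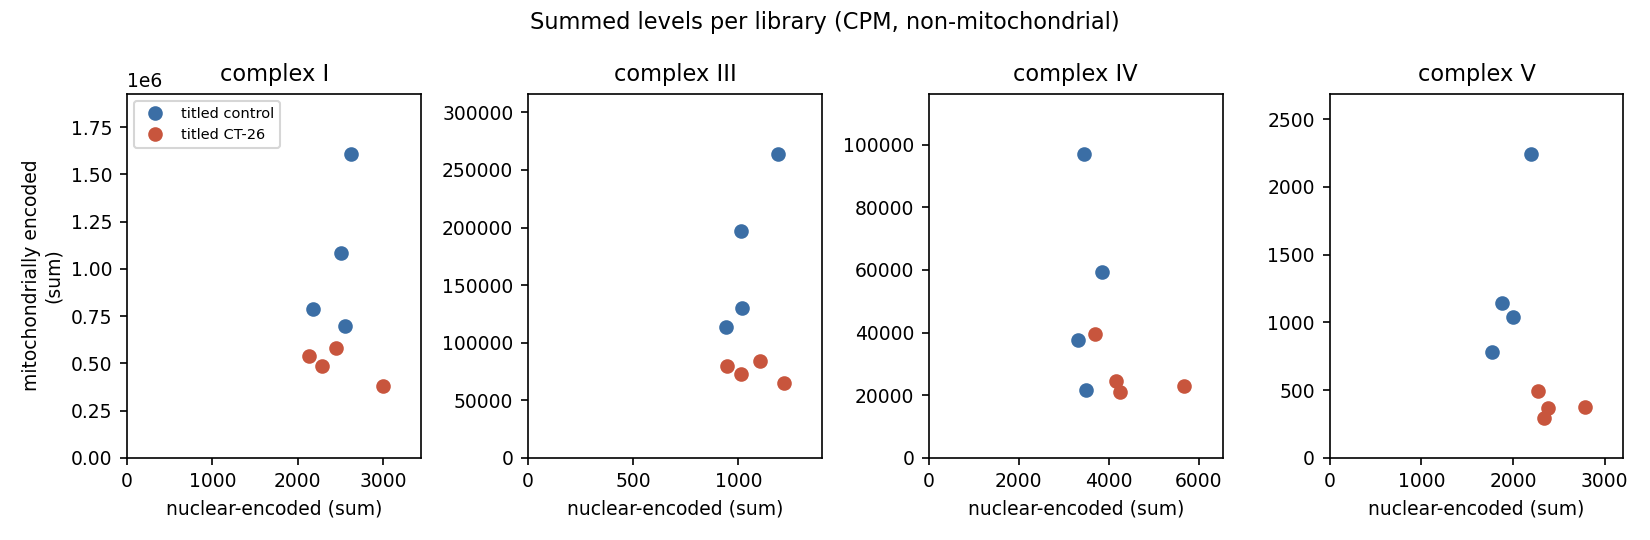
Summed level of mitochondrially encoded subunits (vertical) against nuclear-encoded subunits (horizontal) of complexes I, III, IV and V, both in CPM, over non-mitochondrial counts with axes from 0, 1 point per library. The titled CT-26 libraries lie below the titled control libraries on the vertical axis for complexes I, III and V, and to their right on the horizontal axis for complex V.

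Other genes of mitochondrial energy metabolism were read from lists outside the symbol rule, all tested by edgeR against the same backgrounds of 17.8% higher and 25.6% lower. Of 14 tested respiratory chain and assembly genes without the prefixes, 1 was higher and 3 were lower, with a median log2 fold change of -0.41. The 3 lower ones were Coa6, which helps to load copper into complex IV (-3.27 ± 0.51 (SE), adjusted p = 4.67e-06, edgeR), and Uqcc2 and Uqcc3, assembly factors of complex III (-1.66 ± 0.43 (SE), adjusted p = 0.00230, and -1.57 ± 0.40 (SE), adjusted p = 0.00192, edgeR). The higher one was Tmem242, an assembly factor of ATP synthase, named after its value was seen. Of 38 tested genes for mitochondrial ribosomal proteins 8 were lower and 30 did not pass (median -0.26), led by Mrpl42 (-1.13 ± 0.21 (SE), adjusted p = 4.72e-05, edgeR), Mrps5 (-1.91) and Mrps21 (-1.08). Of 12 tested genes for mitochondrial transcription and biogenesis 1 was higher and 2 were lower (median -0.08). Ssbp1, the single-strand DNA binding protein of mitochondrial DNA, was lower (-1.02 ± 0.28 (SE), adjusted p = 0.00363, edgeR), as was Gabpb2, a partner of GABP (-0.91). The transcription factor gene Nrf1 was higher (0.97 ± 0.34 (SE), adjusted p = 0.0219, edgeR).

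In the citric acid cycle 1 of 15 tested genes was higher and 1 lower, with a median of 0.12. These were Dlst, a subunit of the oxoglutarate dehydrogenase complex (1.06 ± 0.39 (SE), adjusted p = 0.0260, edgeR), and Idh3g, a subunit of NAD-dependent isocitrate dehydrogenase (-0.76 ± 0.22 (SE), adjusted p = 0.00603, edgeR). The fumarase gene Fh1 did not pass (-0.78 ± 0.33 (SE), adjusted p = 0.0597, edgeR). Of 9 tested glycolysis genes 3 were higher and 6 did not pass, with a median of 0.29. Hk1, the hexokinase that binds the mitochondrial outer membrane, had 0.90 ± 0.29 (SE), adjusted p = 0.0135, glucose phosphate isomerase (Gpi1) had 0.70 ± 0.27 (SE), adjusted p = 0.0330 and the muscle-type phosphofructokinase gene Pfkm had 1.10 ± 0.45 (SE), adjusted p = 0.0483 (edgeR).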

How the data were processed

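RNA was sequenced from 8 spleen libraries. The deposited tables hold raw counts of fragments per gene; the program was featureCounts 2.0.1, per the file headers, run on paired fragments against GENCODE M29 with no strand option. Trimmomatic 0.39 and STAR 2.7.10a are named in the submitters' processing notes, which list both GRCm39 and GRCm38 as builds. Coordinates of genes follow the tables. Symbols for 52081 of 55414 genes and the biotypes came from GENCODE M21. The receptor tables were not used here, and 1 gene's own values are not reported here.

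Library sizes were the counts of genes outside the mitochondrial chromosome. Genes were filtered with filterByExpr and tested with edgeR 4.0.16 (robust quasi-likelihood test, R 4.3.3), with p adjusted by Benjamini and Hochberg over the 6636 genes tested. Alternatives used DESeq2 1.42.0, TMM, total counts, no filter, lane, a replicate block and leaving out each library. The fit was tested on simulated data. Same-numbered libraries of the 2 sets did not deviate together (correlations -0.0841 to 0.0756), so they were not paired.

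The members and lists were chosen with earlier results of these data known. CPM are counts over non-mitochondrial totals; errors are SDs between the 4 libraries of a set except where SE is written. Genes are named by rule: in each complex up to 4 of smallest p that passed without overlap between sets, the highest per kilobase, the tested gene farthest from the complex's median, Cox7a2l, Ndufa4 and the inhibitor, detected rare isoforms, and in other lists the 3 of smallest p. Over all genes tested, mitochondrial ones included, libraries of a set differed by more than counting noise (chi-square per degree of freedom of at least 4.28). The mitochondrial share differed between libraries and enters this value, so it does not give the spread of the nuclear genes alone. Precision is set by the spread between libraries as well as by the counts. In all, 15 of the 98 genes share over 10% of their exon length with another gene, and their counts are uncertain, as is the split between close paralogues.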

Additional observations from a re-analysis of the deposited data

Results flagged for a closer look

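Among 75 sets of 4 library values examined for the genes and sums named, 4 held 1 library far from the other 3 by Dixon's criterion, and chance gives about 1 in 20. Cox6b2 was at 763 CPM in titled CT-26 2, against 338 to 361 in the other titled CT-26 libraries. Sdhaf1 was at 288 CPM in titled CT-26 1, against 113 to 141. Atp5g2 was at 21.7 CPM in titled CT-26 2, against 6.62 to 8.71, and at 40.5 in titled control 1, against 28.5 to 30.4.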

How the results depend on the processing

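With total counts, 1962 of all genes were higher and 795 lower, and 26 and 2 of the respiratory genes. Under it the log2 ratios of the sums were 0.48 for complex I, 0.74 for II, 0.54 for III, 0.82 for IV, 0.79 for V, 0.33 for the assembly factors and -0.55 for the mitochondrially encoded mRNAs. With TMM over all genes 16 members were higher and the complex V ratio was 0.45. With TMM over non-mitochondrial genes 17 were higher and the ratios were 0.41 for complex II and 0.47 for complex V. With lane as a factor 5 were higher. Without Sdhd, a sum added after the data were seen, the complex II ratio was -0.18. The share of all genes called was 43.4%, 40.3 to 43.7% under the scalings and DESeq2, 30.7% with lane and 18.6% without the filter.

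Leaving out each library in turn gave 7 to 12 members higher and 6 to 9 lower, and 1085 to 1277 higher and 1529 to 1904 lower over all genes. The sums' log2 ratios then ran from -0.11 to 0.06 for complex I, 0.18 to 0.31 for II, -0.02 to 0.11 for III, 0.19 to 0.41 for IV, 0.25 to 0.38 for V, -0.39 to -0.04 for the assembly factors and -1.24 to -0.82 for the mitochondrially encoded mRNAs. The replicate block, on numbers that do not pair the libraries, gave 9 members higher and 9 lower and 1176 and 1637 over all genes, and Cox6a1 and Atp5g3 lost their calls.

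A few genes without a call changed sign. Uqcrb was 0.33 with total counts. Uqcrh was 0.014 and 0.030 with TMM over all and over non-mitochondrial genes, 0.38 with total counts and 0.024 with DESeq2. Cox7a2l was 0.019, 0.034, 0.41 and 0.029 under the same settings, 0.16 with lane and between -0.23 and 0.029 on leaving out each library. Over the single genes and settings, 335 values kept their direction and side of the threshold, 60 lost and 9 gained a call, and 12 changed sign. Except where stated, the cause was not tested. Depth limits the rare genes: 23 of 98 had too few counts for a test.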
